A study of Mus musculus with 16 samples.

Results

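H3K27me3 is the trimethylated form of lysine 27 of histone H3. It was mapped by chromatin immunoprecipitation and sequencing (ChIP-seq) in mouse mesenchymal stem cell (MSC) lines with and without Dicer, the ribonuclease that releases mature microRNAs from their precursors. The comparison used the H3K27me3 libraries of the Dicer knockout (KO, 2 libraries) and the wild type (WT, 2 libraries), which are 4 of the 16 samples in the series. The other 12 samples are H3K4me3 and H3K36me3 libraries of the same lines, read here only beside H3K27me3, and 4 whole-cell extracts whose own data were not analysed here. The title of the series places the work in the study of the microRNA family let-7, its target Nr6a1 and a developmental program.

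The KO lines carry the genotype Dicer -/- and the WT lines the genotype Dicer f/f, a floxed allele that is still intact. Both are C57BL/6, immortalized and monoclonal, and were grown in the same serum-containing medium. The sources used here do not give how many clones stand behind each genotype, nor whether replicates came from separate cultures, so genotype and clone cannot be told apart. The p-values measure only the spread between these libraries, which may be technical. A peak list does not measure the deletion of Dicer, so the genotype labels were not checked here. Of the stromal marker genes, Col1a1, Col1a2 and Twist1 could be placed, and an H3K4me3 peak, the mark of active promoters, was listed near each of them in all 4 H3K4me3 libraries. H3K27me3 was also listed near Col1a2 (4.06 kb) and Twist1 (21.6 kb), in KO replicate 2 only, and near Col1a1 in no library. Markers of blood, endothelium and epithelium were not analysed here.

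H3K27me3 is written by the Polycomb repressive complex PRC2, whose catalytic subunit is Ezh2 or Ezh1, and is read by its subunit Eed and by PRC1 complexes that hold chromatin in a silent state. PRC2 is recruited preferentially to CpG-rich promoters that are not being transcribed, and the mark can spread from there over many kilobases into wide Polycomb domains. In stromal cells such domains lie over Hox genes outside the positional code of the cell and over transcription factors and signalling genes of other lineages.

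The 250 bases before the RefSeq start site (GRCm38.p6) are shown for 4 developmental regulators, 5′ to 3′ on the strand of the gene, with every CpG (the motif CG, the same on both strands) in capitals. They were chosen after their H3K27me3 values were seen. Sim1 and Foxa1 lie in windows with H3K27me3 in the WT libraries only, and Emx2 and Twist1 in windows with H3K27me3 in KO replicate 2 only.
Sim1: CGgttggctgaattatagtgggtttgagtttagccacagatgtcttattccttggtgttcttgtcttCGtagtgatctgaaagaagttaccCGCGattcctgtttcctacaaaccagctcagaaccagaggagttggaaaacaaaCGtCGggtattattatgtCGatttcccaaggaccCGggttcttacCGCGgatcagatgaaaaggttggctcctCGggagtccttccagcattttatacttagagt
Foxa1: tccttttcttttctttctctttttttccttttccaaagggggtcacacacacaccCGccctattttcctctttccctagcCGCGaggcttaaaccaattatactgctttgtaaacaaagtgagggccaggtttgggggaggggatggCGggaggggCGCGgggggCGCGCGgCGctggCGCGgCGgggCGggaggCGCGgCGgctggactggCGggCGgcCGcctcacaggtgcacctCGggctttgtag
Emx2: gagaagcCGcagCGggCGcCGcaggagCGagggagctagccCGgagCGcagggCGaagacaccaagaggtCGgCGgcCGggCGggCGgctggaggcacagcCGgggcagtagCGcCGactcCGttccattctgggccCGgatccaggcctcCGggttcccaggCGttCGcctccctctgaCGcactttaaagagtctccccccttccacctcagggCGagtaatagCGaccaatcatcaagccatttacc
Twist1: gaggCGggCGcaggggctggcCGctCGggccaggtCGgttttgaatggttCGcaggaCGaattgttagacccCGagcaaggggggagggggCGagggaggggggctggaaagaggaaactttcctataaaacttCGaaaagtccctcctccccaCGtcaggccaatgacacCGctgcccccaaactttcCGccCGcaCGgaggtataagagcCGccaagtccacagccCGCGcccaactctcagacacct
The Sim1 promoter held 11 CpG, and 35.6% of all promoters of the table held as many. Foxa1 held 21 (16.3% of promoters with as many), Emx2 24 (11.98%) and Twist1 18 (21.7%). The median was 6 CpG over all 32851 promoters of the table and 16 over the 85 promoters matched among the 134 gene symbols of the loci described here. It was 16 for the loci that met a peak of the WT replicate 2 difference list, described further on (65 promoters). For those that met a peak of the KO replicate 2 difference list it was 15.5 (8 promoters). Loci that met both lists are in both sets, so these medians cannot show whether CpG number separates the directions. The position of a peak relative to these promoters was not determined, because the peaks are in mm9 and the promoters in another build.

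For each library the authors deposited 2 peak lists, of which the first was called against whole-cell extract and the second is a difference list. The lists hold positions and a score but no read counts, so sequencing depth is unknown. On chromosomes 1 to 19 of mm9, the lists against extract held 698 peaks in KO replicate 1, 17471 in KO replicate 2, 2533 in WT replicate 1 and 14523 in WT replicate 2. Both lists of replicate 1 were far shorter than those of replicate 2, and the KO list of replicate 1 was the shortest. The values of each replicate number are therefore given apart.

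Wide H3K27me3 domains were fewer and narrower in the KO library of each replicate number, while the number of peaks moved in opposite directions. Peaks of 5 kb or more covered 0.0126 Mb in KO replicate 1 against 1.08 Mb in WT replicate 1, and 6.43 Mb in KO replicate 2 against 15.1 Mb in WT replicate 2. The KO to WT ratio was 0.0117 in replicate 1 and 0.426 in replicate 2. KO replicate 2 nevertheless covered more than WT replicate 1, so the genotypes overlapped. The mean log2 difference, KO minus WT, was -3.82 (-6.42 and -1.23 in the 2 replicate numbers), with an exact two-sided permutation p of 0.667, where 2 against 2 libraries cannot go below 0.333.

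The excess in WT grew with peak width in replicate 2. Peaks of 10 kb or more numbered 117 in KO replicate 2 and 387 in WT replicate 2, and 0 in KO replicate 1 and 26 in WT replicate 1. Peaks of 20 kb or more numbered 9 and 76 in replicate 2, and 0 and 2 in replicate 1. The widest peak measured 6.82 kb in KO replicate 1, 40.9 kb in KO replicate 2, 33.3 kb in WT replicate 1 and 110.002 kb in WT replicate 2. At the narrow end the order in replicate 2 was the other way. Peaks of 1 to 2 kb covered 11.6 Mb in KO replicate 2 and 7.09 Mb in WT replicate 2. Peaks of 5 kb or more made up 1.73% of the covered length in KO replicate 1, 18.7% in KO replicate 2, 23.2% in WT replicate 1 and 40.4% in WT replicate 2, so by share both WT libraries lay above both KO libraries.

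**Figure D1:**
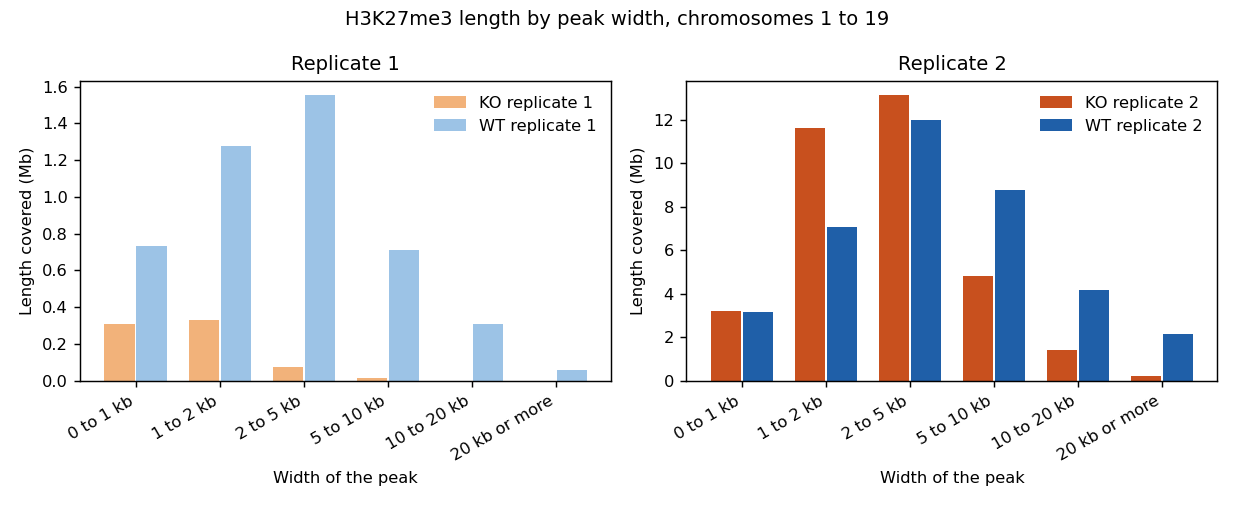
Length of the autosomes covered by H3K27me3 peaks (Mb, linear axis) by the width of the peak, for replicate 1 (left) and replicate 2 (right, another scale). Each bar is 1 library. In replicate 2 the KO bar is higher at 1 to 2 kb (11.6 against 7.09 Mb) and the WT bar is higher from 5 kb upwards.

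Total covered length was 0.729 Mb in KO replicate 1, 34.4 Mb in KO replicate 2, 4.64 Mb in WT replicate 1 and 37.3 Mb in WT replicate 2. In replicate 2 the genotypes thus covered nearly equal lengths (log2 ratio -0.12) with differently sized peaks, whereas replicate 1 differed widely (-2.67). The mean log2 differences were -1.39 for covered length (exact p = 0.667), -0.80 for peak number (exact p = 1) and -0.23 for median width (exact p = 0.667), by the same two-sided permutation test. Median widths were 902.5 bp in KO replicate 1, 1425 bp in KO replicate 2, 1192 bp in the first WT library and 1490 bp in the second. Without KO replicate 1, the means turned positive, at 1.39 for length, 1.53 for number and 0.67 for length in peaks of 5 kb or more.

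List length was then matched within each replicate number by keeping only the top-scored peaks. The 698 top peaks of WT replicate 1 had a median width of 3003 bp and covered 2.69 Mb, against 902.5 bp and 0.729 Mb in KO replicate 1. The lowest score kept was 350.03 in WT replicate 1 and 80.08 in KO replicate 1. Matching there thus picked the strongest WT peaks, which were wider than the full WT list (median 1192 bp). In replicate 2, 14524 top peaks of KO covered 31.5 Mb, with 6.43 Mb in peaks of 5 kb or more, the same as in the full list. The peaks removed from KO replicate 2 were all narrower than 5 kb. Matching therefore left the excess of wide domains in WT replicate 2 as it was and is no separate support for it. The median width at matched number was 1593 bp in KO replicate 2 and 1490 bp in WT replicate 2, so the median turned round while the wide tail did not. Scores reached 3100 or more, near the top of the scale, at 0 peaks in KO replicate 1, 27 in KO replicate 2, 13 in WT replicate 1 and 887 in WT replicate 2. Strength of enrichment moved with the result, and its part in the peak widths was not tested.

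Wide WT domains were in part still covered in KO replicate 2, and little in KO replicate 1. Of the 387 peaks of 10 kb or more in WT replicate 2, 94.8% met at least 1 bp of a peak in KO replicate 2, but only 57.2% of their length was covered. Over all 14523 peaks of WT replicate 2, 46.2% met one and 41.6% of the length was covered. A wide peak offers more bases to meet. In place of the 1 WT peak, KO replicate 2 listed 3 or more peaks at 173 of the 387, 2 at 102, 1 at 92 and none at 20. Coverage by KO replicate 2 was 36.6% in the outer 10% of the width on either side and 65.1% at the centre. KO replicate 1 met 28.2% of the same 387 peaks, against 2.70% of all WT replicate 2 peaks. Of the 387, it covered 0.293% of the outer 10% and 5.92% of the centre. It covered 13.7% of the length of the 26 peaks of 10 kb or more in WT replicate 1. KO domains were more fully contained in WT ones. Of the 117 peaks of 10 kb or more in KO replicate 2, 95.7% met a WT replicate 2 peak, and 79.7% of their length was covered. Over all 17471 peaks of KO replicate 2, 43.6% met one and 45.2% of the length was covered. The profile with weaker edges was not particular to the KO, since WT replicate 1 covered 11.3% of the outer 10% and 55.3% of the centre of the same 387 WT replicate 2 peaks.

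**Figure D2:**
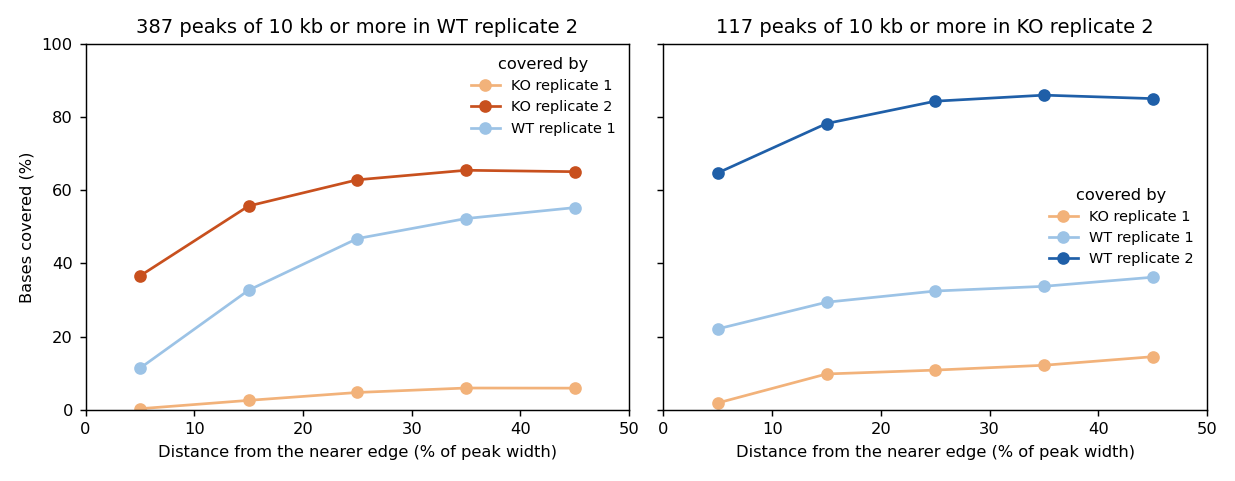
Share of bases (%) inside H3K27me3 peaks of 10 kb or more that the other libraries also covered, by distance from the nearer edge as a percentage of peak width, for 387 peaks of WT replicate 2 (left) and 117 peaks of KO replicate 2 (right). Each line is 1 covering library. KO replicate 2 covered 36.6% at the edges and 65.1% at the centre of the WT peaks.

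Replicates of one genotype shared most of the short list. Of the WT replicate 1 peaks, 98.8% met a peak of WT replicate 2 and 68.6% met one of KO replicate 2, although the KO list was the longer. Of the KO replicate 1 peaks, 86.2% met a peak of KO replicate 2, 69.6% one of WT replicate 2 and 39.1% one of WT replicate 1. The short lists were thus in the main subsets of the long list of their own genotype.

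The difference lists hold the peaks that the authors called in 1 library beyond a control. The sources used here do not name that control, which was read as the same mark in the other genotype, on which every direction below rests. Merging the peaks of the 4 lists against extract gave 23597 regions, and a region was called where it held at least 1 bp of a difference peak. In replicate 1, 97 regions were KO-higher (0.411% of all regions) and 959 were WT-higher (4.06%). In replicate 2, 3267 were KO-higher (13.8%) and 4812 were WT-higher (20.4%). Calls in both replicates were 41 KO-higher (0.174%) and 897 WT-higher (3.8%). Replicate 2 gave calls in both directions, whereas the regions called in both replicates lay largely on the WT side. The KO-higher count in both replicates cannot exceed the 97 of replicate 1. The difference list held 113 peaks in KO replicate 1 and 1405 in WT replicate 1, so this imbalance is bounded by the short KO list.

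The 2 directions differed in the kind of region. The median width was 1477 bp over all regions, 1520 bp over the KO-higher regions of replicate 2 and 3449.5 bp over the WT-higher regions of replicate 2. The 897 WT-higher regions of both replicates had a median of 7121 bp, and the 41 KO-higher ones 3317 bp. KO-higher regions of replicate 2 were in the main absent from the other genotype, with no peak in WT replicate 2 at 98.8% of them. WT-higher regions of replicate 2 had no peak in KO replicate 2 at 59.3%, a KO peak covering less than the WT length at most of the others, and at least as much KO as WT length at 2.85%. Counted over all peaks and not regions, 7815 of the 14523 in WT replicate 2 met no peak of KO replicate 2. In the other direction, 9861 of the 17471 in KO replicate 2 met none, so absence was common in the whole lists too. A wide region offers more bases to meet a difference peak, so width and the chance of a call are not independent.

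Of the 41 KO-higher regions of both replicates, 18 lay in 1 stretch of chromosome 18 (chr18:88629326-89946913). Of all 23597 regions, 590 lay on chromosome 18. These 18 regions held 23.4 kb of H3K27me3 in KO replicate 1, 60.5 kb in KO replicate 2, 0.588 kb in WT replicate 1 and 0 kb in WT replicate 2. Both KO libraries lay above both WT libraries there, which follows in large part from choosing regions called KO-higher in both replicates. Without chromosome 18, 23 KO-higher regions remained. Others lay in the HoxA window (chr6:52202730-52210525) and the HoxC window (chr15:102751479-102757571). The HoxA region held 6029 bp in KO replicate 1, 7796 bp in KO replicate 2, 0 bp in the first WT library and 1166 bp in the second. Both KO libraries lay above both WT libraries at it, again a region chosen by its calls. A region before the start of the HoxC window (chr15:102592597-102603736) was listed over 11140 bp in KO replicate 2 alone, and in KO replicate 1 it held only a difference peak, of 657 bp.

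Of the 10 WT-higher regions of both replicates with the longest difference peaks, 5 lay in windows of developmental regulators, whose placement is described further on. The first was in the Pax2 window (chr19:44805439-44842899), where H3K27me3 covered 7241 bp in KO replicate 1, 25136 bp in KO replicate 2, 27363 bp in the first WT library and 37461 bp in the second. Pax2 encodes a paired-box factor of kidney and midbrain development. Among the other 9 were regions in the windows of Foxa2 (chr2:147844517-147886636), Zic2 and Zic5 (chr14:122862962-122892812) and Sim1 (chr10:50608537-50634701). At Foxa2, a factor of endoderm and floor plate, the values in the same order were 1026, 31278, 18477 and 41184 bp. At both regions the WT library lay above the KO library of the same number, which follows in large part from their choice as WT-higher. The 5 others lay outside the placed loci. One of them, chr16:94077254-94104962, was listed over 18042 bp in the first WT library and 27709 bp in the second, and in neither KO library.

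The widest region of all was in the HoxB window (chr11:96109987-96219988, 110002 bp). H3K27me3 covered 9577 bp of it in KO replicate 1, 69015 bp in KO replicate 2, 90594 bp in the first WT library and 110002 bp in the second. Both WT libraries lay above both KO libraries, and difference peaks were listed in WT replicate 1 only. The next widest were a second HoxB region (48905 bp), one in the window of Foxf1, Foxc2 and Foxl1 (48376 bp), one that reaches into the Pax2 window (46626 bp) and one outside the placed loci (chr6:83632731-83675428).

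To describe developmental loci, 115 windows were laid over mm9, 80 kb each and larger at the Hox clusters. They were placed by hand from general knowledge of mm9 gene positions, since no mm9 annotation was used here. A window names a neighbourhood and not a promoter or gene body. Chromosome and gene order were the same as in the RefSeq table (GRCm38.p6) for all 134 symbols and 96 neighbouring pairs. That check cannot reveal a window shifted by less than the gap to its neighbour, so a window may miss its gene. H3K27me3 was listed in 95 of the 115 windows in at least 1 library, in 21 in KO replicate 1, 76 in KO replicate 2, 69 in WT replicate 1 and 90 in WT replicate 2. Median length per window was 0 kb in KO replicate 1, 3.702 kb in KO replicate 2, 1.998 kb in WT replicate 1 and 12.6 kb in WT replicate 2.

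WT-higher difference peaks lay in 63 windows in replicate 1 and in 83 in replicate 2, and in 61 in both. Over all 80 kb windows tiled along the autosomes the shares were 2.93% in replicate 1 and 10.5% in replicate 2, and over tiles with any H3K27me3 peak 11.7% and 41.6%. KO-higher difference peaks lay in 2 windows in replicate 1 (HoxA and HoxC, called in both replicates) and 9 in replicate 2, where the shares of tiles were 0.266% and 6.56%, and of tiles with a peak 1.04% and 24.9%. Only WT-higher peaks were found at 81 loci, only KO-higher peaks at 5, both at 4 and neither at 25. H3K27me3 was longer in both WT than in both KO libraries at 34 loci, and the reverse held at 1, the HoxC cluster. The loci were selected as developmental regulators, many of them known Polycomb targets, and the Hox windows are larger than the tiles, so a higher share of calls than in the tiles describes the list.

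By class, the 77 transcription factor loci had WT-higher peaks at 47 in replicate 1 and 61 in replicate 2, and KO-higher peaks at 0 and 5. The 16 signalling loci had WT-higher peaks at 7 and 11, and KO-higher peaks at 0 and 2. The 10 let-7 target and imprinted loci had WT-higher peaks at 5 and 7 and no KO-higher peak. Of the 8 stromal and lineage loci, 1 (Col2a1) was WT-higher in both replicates and none was KO-higher.

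**Figure D3:**
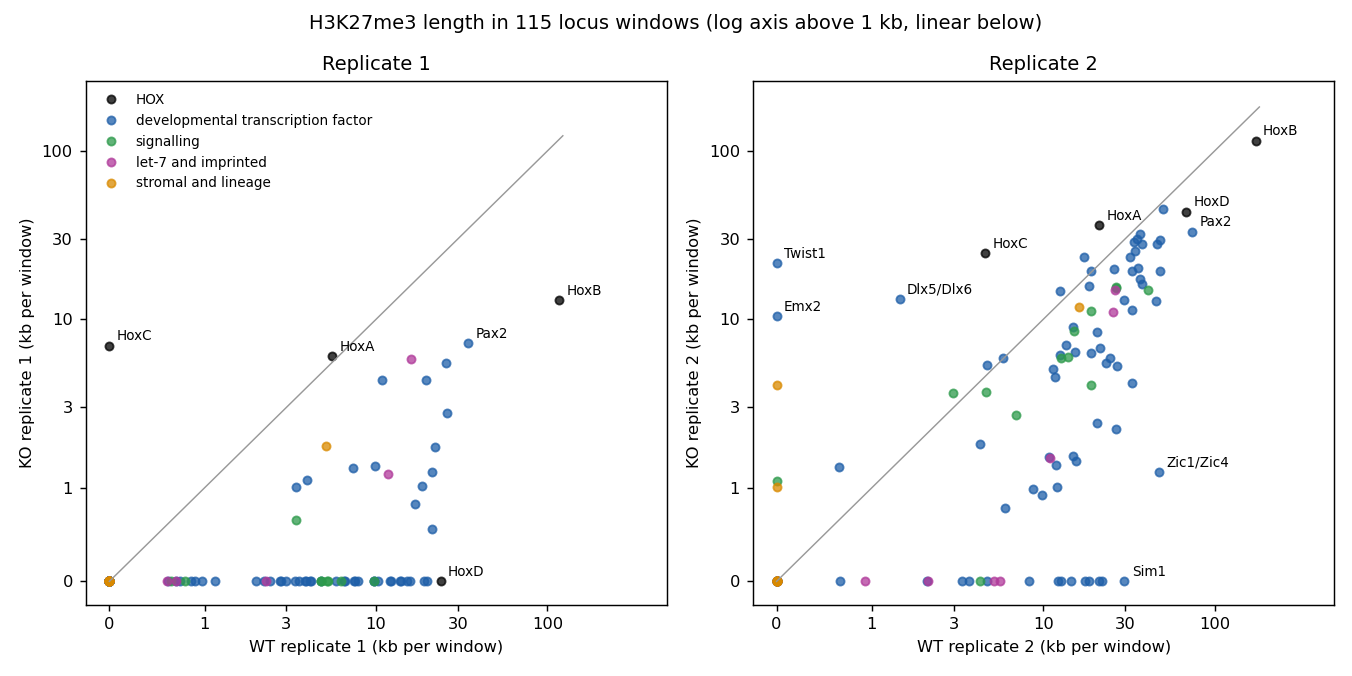
Length of H3K27me3 (kb) in each of 115 locus windows in the WT library (x axis) and the KO library (y axis) of replicate 1 (left) and replicate 2 (right), with axes logarithmic above 1 kb and linear below. Each point is 1 locus, coloured by class, and the line marks equal length. Most points lie below the line, while HoxC, Twist1, Emx2 and Dlx5/Dlx6 lie above it in replicate 2 (24.7, 21.6, 10.47 and 13.3 kb in KO).

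The Hox clusters did not move as 1 group. Hox genes encode the homeodomain factors of position along the body axis, with genes numbered 13 for the most posterior. HoxB was marked most widely, with 12.95 kb in KO replicate 1, 115.1 kb in KO replicate 2, 117 kb in WT replicate 1 and 174 kb in WT replicate 2, and was WT-higher in both replicates. HoxD had 0, 43.5, 23.8 and 68.5 kb in the same order and was also WT-higher in both. In HoxB both WT libraries lay above both KO libraries, while in HoxD KO replicate 2 lay above WT replicate 1.

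HoxC was the only cluster with KO-higher peaks alone, and in both replicates. It held 6.97 kb in KO replicate 1, 24.7 kb in KO replicate 2, 0 kb in WT replicate 1 and 4.57 kb in WT replicate 2, so both KO libraries lay above both WT libraries. All of it lay in the first 35 kb of the window, the side of Hoxc13, and the other 105 kb had none. That other side carried H3K4me3 over 26.8 to 37.5 kb in every library.

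HoxA had both directions, and the limits of its parts were set after the values were seen. The side of Hoxa13, from 110 to 150 kb of the window, held 6.03 kb in KO replicate 1, 21.4 kb in KO replicate 2, 0 kb in WT replicate 1 and 4.39 kb in WT replicate 2, and was KO-higher in both replicates. The adjoining side of Evx1, a homeobox gene beyond Hoxa13, held 0, 14.7, 5.54 and 16.8 kb in the same order and was WT-higher in both. The anterior 110 kb had no H3K27me3 in any library, with 40.6 to 59.7 kb of H3K4me3. The posterior ends of HoxA and HoxC thus had more H3K27me3 in KO, and the neighbouring Evx1 side, HoxB and HoxD less, within each replicate number.

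**Figure D4:**
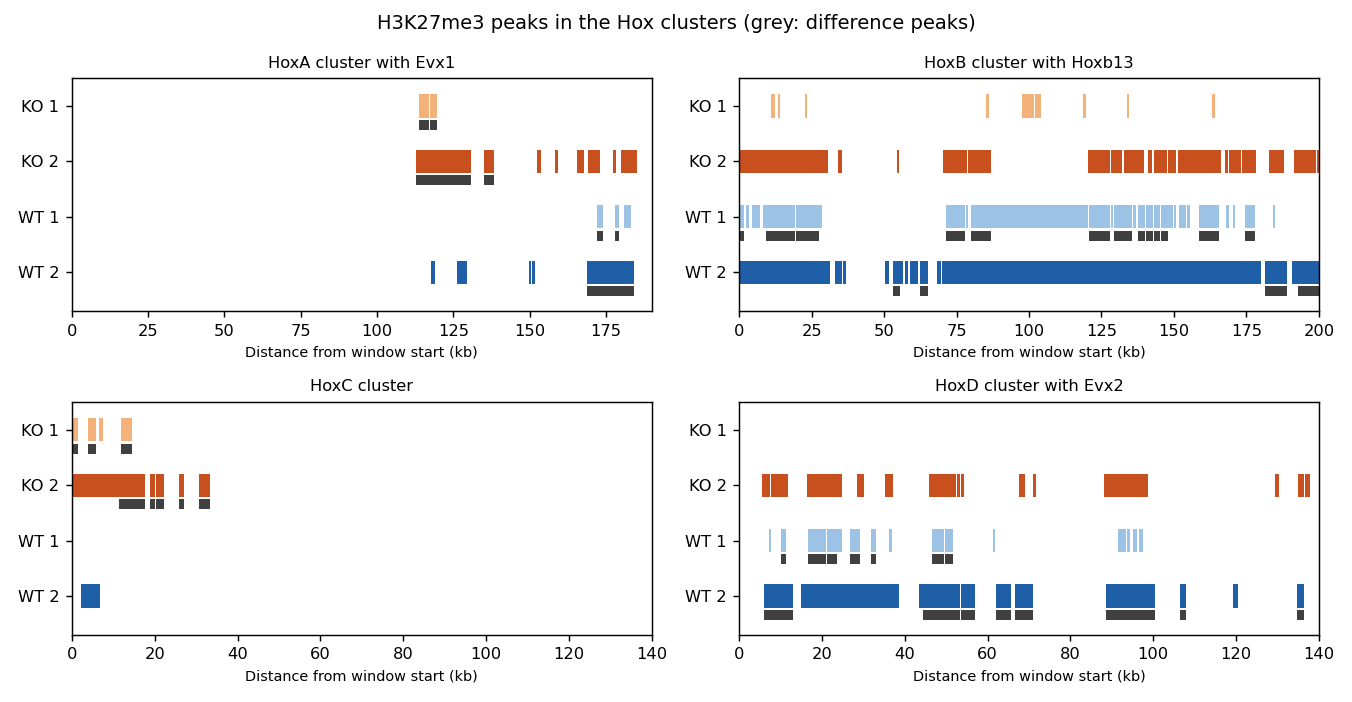
H3K27me3 peaks in the 4 Hox windows by distance from the window start (kb), 1 row for each library (KO 1, KO 2, WT 1, WT 2), with that library's difference peaks in dark grey beneath. KO difference peaks lie at the Hoxa13 side of HoxA (110 to 150 kb) and the Hoxc13 side of HoxC (first 35 kb), and WT difference peaks at the Evx1 side of HoxA and along HoxB and HoxD.

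The other loci with KO-higher peaks alone were KO-higher in replicate 2 only. Twist1, a helix-loop-helix factor of mesenchyme, had 21.6 kb in KO replicate 2 and 0 kb in the other 3 libraries. Emx2, a homeobox factor of forebrain and urogenital development, had 10.47 kb in KO replicate 2 and 0 kb in the other 3. The Dlx5 and Dlx6 window, homeobox genes of bone and jaw, had 13.3 kb in KO replicate 2, 1.46 kb in WT replicate 2 and 0 kb in both replicate 1 libraries. Sfrp2, a secreted Wnt antagonist of stromal cells, had 1.09 kb in KO replicate 2 alone. KO replicate 1, with 698 peaks in all, listed none of these.

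H3K36me3, a mark of transcribed gene bodies, was longer in WT than in KO in replicate 2 at all 5 loci with KO-higher peaks alone, HoxC included, and in replicate 1 at 3 of them. At Emx2 it covered 0 kb in both KO libraries, 3.09 kb in WT replicate 1 and 9.95 kb in WT replicate 2. H3K4me3 at Emx2 covered 0, 3.96, 4.61 and 8.41 kb in the order KO replicate 1, KO replicate 2, WT replicate 1 and WT replicate 2. At Emx2 the active marks were therefore shorter where H3K27me3 was longer within replicate 2. Over all 115 loci H3K36me3 was longer in WT replicate 2 at 42 and in KO replicate 2 at 8, so the direction at the 5 loci was also that of the whole list.

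Among the WT-higher transcription factors, several had no listed peak in either KO library. Sim1, a factor of hypothalamic neurons, had 0 kb in both KO libraries, 19.04 kb in WT replicate 1 and 29.8 kb in WT replicate 2. Foxa1, a pioneer factor of endoderm, had 0 kb in both KO libraries, 4.15 kb in WT replicate 1 and 21.9 kb in WT replicate 2. In both windows each WT library thus lay above both KO libraries. KO replicate 1 listed H3K27me3 in only 21 of the 115 windows, so its 0 kb says little and the contrast rests mainly on KO replicate 2. Both loci were picked out after their values were seen. H3K4me3 in the Foxa1 window covered 7.99 kb in KO replicate 1, 10.3 kb in KO replicate 2, 0 kb in WT replicate 1 and 4.46 kb in WT replicate 2. At Sim1 it covered 5.86 kb in KO replicate 2, 1.34 kb in WT replicate 2 and 0 kb in replicate 1. Nkx6-1, a homeobox factor of motor neurons and pancreas, was likewise listed in WT only, at 3.54 and 14.6 kb in WT replicates 1 and 2.

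Other neural regulators kept some H3K27me3 in KO replicate 2. Zic1 and Zic4, zinc-finger genes of the dorsal neural tube, had 0 kb in KO replicate 1, 1.24 kb in KO replicate 2, 6.49 kb in WT replicate 1 and 47.4 kb in WT replicate 2. Sox2, the factor of neural and pluripotent progenitors, had 0, 4.19, 15.9 and 33.1 kb in the same order, and Otx2, a head organizer factor, 0, 2.24, 15.3 and 26.5 kb. At these loci each WT library exceeded both KO libraries. Pax2 had 7.24, 33.1, 34.6 and 74.0 kb, so that KO replicate 2 and WT replicate 1 were close. The window of Six2, a kidney progenitor factor, had 0, 5.30, 13.7 and 26.9 kb. Lhx2, En2 and Hand2, factors of forebrain, midbrain and heart, had 28.2 to 32.3 kb in KO replicate 2 and 36.8 to 48.3 kb in WT replicate 2. These loci were wide in both genotypes in replicate 2.

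**Figure D5:**
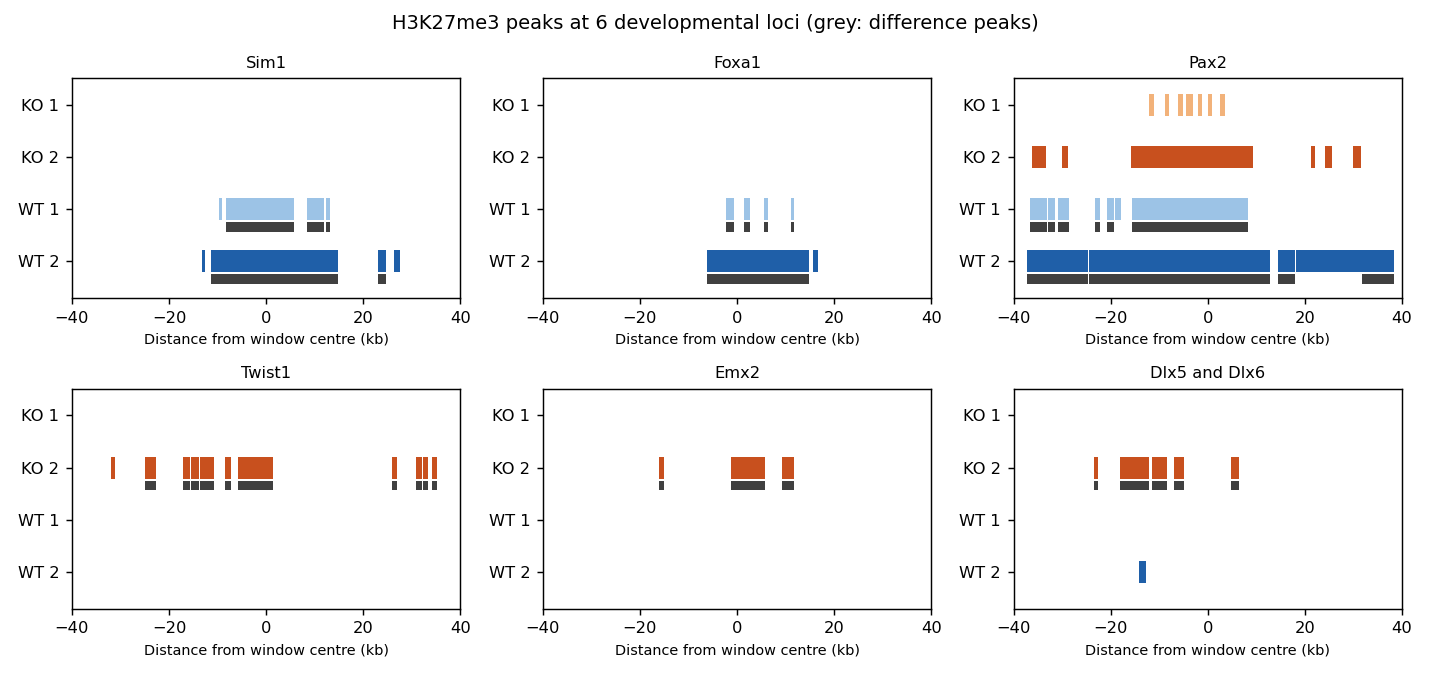
H3K27me3 peaks at 6 loci by distance from the centre of an 80 kb window (kb), 1 row for each library, with that library's difference peaks in dark grey beneath. Sim1 and Foxa1 show peaks in the WT rows only, Pax2 in every row with the longest in WT 2 (74.0 kb), and Twist1 and Emx2 in the KO 2 row only.

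Mesodermal and endodermal factors included members with little difference in summed length within replicate 2. Pax1, of the sclerotome, had 19.3 kb in KO replicate 2 and 19.1 kb in WT replicate 2, with 0 and 0.740 kb in replicate 1. WT-higher difference peaks nevertheless lay over 17.1 kb of the Pax1 window in replicate 2. T (brachyury), of early mesoderm, had 1.11, 23.3, 3.97 and 17.4 kb in the order KO replicate 1, KO replicate 2, WT replicate 1 and WT replicate 2, with difference peaks in both directions in replicate 2. Pax6, an eye and forebrain factor, also had both. Sox10, of the neural crest, had 14.8 kb in KO replicate 2 and 12.6 kb in WT replicate 2, 0 kb in both replicate 1 libraries and no difference peak. Over the whole Foxa2 window the summed lengths in replicate 2 were 45.4 kb in KO and 49.7 kb in WT, with WT-higher difference peaks over 38.5 kb.

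Of the 16 signalling loci, H3K27me3 was longer in WT replicate 2 at 11 and in KO replicate 2 at 2. Over all 115 loci the counts were 80 and 15, and over all 23597 regions H3K27me3 was longer in WT replicate 2 at 47.3% and in KO replicate 2 at 52.2%. The window of Wnt6 and Wnt10a, Wnt ligands, had 0 kb in KO replicate 1, 15.03 kb in KO replicate 2, 9.78 kb in WT replicate 1 and 41.1 kb in WT replicate 2. Wnt1 and Wnt10b had 0, 4.07, 4.77 and 19.01 kb, and Sfrp5, a secreted Wnt antagonist, 0, 15.5, 5.25 and 26.5 kb. Each WT library exceeded the KO library of its own number in these 3 windows. Shh, the hedgehog ligand, had 0, 5.88, 4.75 and 12.6 kb and difference peaks in both directions in replicate 2. Fgf8, a growth factor of limb and brain organizers, had 0, 8.55, 6.23 and 15.2 kb. Bmp4 and Inhba, a bone morphogenetic protein and an activin subunit, had no H3K27me3 in any library and carried H3K4me3 in all 4.

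The let-7 targets in the list are genes of fetal growth that let-7 silences in adult tissue. Igf2bp1, which encodes a fetal mRNA-binding protein, had 1.22 kb of H3K27me3 in KO replicate 1, 11.1 kb in KO replicate 2, 11.7 kb in WT replicate 1 and 25.5 kb in WT replicate 2. Igf2bp3, of the same family, had 5.78, 15.03, 16.04 and 26.3 kb. At both, each WT library exceeded both KO libraries, although WT replicate 1 was close to KO replicate 2, and WT-higher peaks were listed in both replicates. H3K4me3 at Igf2bp1 covered 5.82, 13.9, 1.46 and 1.91 kb in the same order, higher in both KO libraries. Lin28b, which blocks let-7 maturation, had 0, 1.51, 2.29 and 10.9 kb. Hmga2, a chromatin protein of fetal growth, had H3K27me3 in WT only, at 0.606 and 5.61 kb in replicates 1 and 2. The window of Nr6a1, the nuclear receptor in the title of the series, had 2.12 kb in WT replicate 2 and 0 kb in the other 3 libraries.

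Some loci had no H3K27me3 at all, and were picked out after their values were seen. Shox2, Irx5, Sox9, Osr1, Foxc1, Pitx1, Cdkn2a with Cdkn2b, Col1a1 and Runx2 had no H3K27me3 peak in any library. Other genes of limb and mesenchyme were marked, such as Tbx5, with 13.05 kb in KO replicate 2 and 29.6 kb in WT replicate 2, so the named genes do not stand for a class. All of the unmarked genes named but Runx2 carried H3K4me3 in every library, for example 12.3 to 22.0 kb at Foxc1, a factor of mesenchyme. Absence of H3K27me3 did not always go with H3K4me3. The windows of Bmp2, Meg3 and Igf2bp2 had neither mark in any library. Without H3K27me3 as well, H19 had H3K4me3 in WT replicate 2 only and Pparg in the KO libraries only. The window of Runx2, the bone regulator, had no H3K4me3 in 3 of the 4 libraries but 54.6 to 79.2 kb of H3K36me3. That mark of gene bodies filled nearly all of the 80 kb window in WT replicate 2. Whether the window holds a Runx2 promoter was not determined, so the absent marks describe the window only. The 25 loci without a difference peak had a median of 3.37 to 6.35 kb of H3K4me3 per library, against 0 to 2.57 kb at the 61 loci that were WT-higher in both replicates.

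Many WT-higher regions also met H3K4me3, and the pair of marks at one place is called bivalent. H3K27me3 itself was listed at 9.70% of the 897 regions in KO replicate 1 and 69.0% in KO replicate 2. In WT replicates 1 and 2 the shares were 97.5% and 100%. H3K4me3 in a KO library can therefore stand without H3K27me3. H3K4me3 met 25.1% of the 897 regions in KO replicate 1, 52.2% in KO replicate 2, 17.9% in WT replicate 1 and 54.5% in WT replicate 2. Over all regions the shares were 4.36%, 9.28%, 3.99% and 9.63%, and at the 41 KO-higher regions of both replicates 17.1% in every library. The 897 regions are wider than the rest and so offer more bases to meet. H3K36me3 met under 1% of them in each library. At the 61 loci that were WT-higher in both replicates, H3K4me3 was longer in KO than in WT in both replicate numbers at 19 and shorter in both at 4, against 33 and 18 over all 115 loci. Whether both marks lay on the same molecules was not tested.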

How the data were processed

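ChIP-seq of H3K27me3 in Dicer KO and WT MSC lines was analysed from 8 deposited peak lists (for each of 4 libraries, peaks over whole-cell extract and difference peaks), with 8 lists of H3K4me3 and H3K36me3 beside them. Per the submitters' processing notes, alignment used Bowtie 0.12.7 and the mm9 build, and peak calling used MACS, for which the sources used here give no version. Lists were called per library. Peak scores were deposited by the authors with a minimum of 80. The sources used here give no formula for them, and they served only to filter and rank within a list. Greater depth or enrichment gives more and wider called peaks, and depth is unknown.

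Peaks on chromosomes 1 to 19 were used. Overlap meant at least 1 bp, and overlapping or touching peaks were merged into 23597 regions. Log2 library totals were compared by exact two-sided permutation (Python 3.11.15, numpy 2.4.6). Named regions were, per direction, the 10 called in both replicates with the longest difference peaks, the 5 called in replicate 2 only and the 5 widest of all, and any listed locus with a difference peak could be named. Loci without one are named as contrasts. The code was tested on simulated calls and recovered 200 of 200 seeded regions. Alternatives were a score of at least 160, matched peak numbers, other overlaps and merging, chromosome X, no chromosome 18, leaving out each library, and a replicate block.

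The members and gene lists were chosen with earlier results of these data known. Locus windows were placed by hand from general knowledge of mm9, after the peak lists had been opened. Sim2 was left out after its values were seen, because a wide domain outside its window made the placement doubtful. Spacing between neighbouring loci was then compared with the RefSeq table of the other build, without converting a position. The Hox sub-windows and the loci described in detail were also chosen after their values were seen. Some loci of the list are counted but not reported by name here.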

Additional observations from a re-analysis of the deposited data

Results flagged for a closer look

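Chromosome X was outside the main comparison, entering only as an alternative, and held H3K27me3 peaks in every library. KO replicate 1 listed 5 peaks there, KO replicate 2 listed 20, WT replicate 1 listed 25 and WT replicate 2 listed 409. These made up 0.711%, 0.114%, 0.977% and 2.74% of the peaks on chromosomes 1 to 19 and X. Both WT libraries thus had a larger share on X than both KO libraries, and the difference was not tested. Difference peaks on X numbered 0 in KO replicate 1, 2 in KO replicate 2, 15 in WT replicate 1 and 230 in WT replicate 2. No peak list of a control without antibody was analysed here, so these are peaks against extract only.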

How the results depend on the processing

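Of 89 alternative values, 76 kept their direction or, for counts, stayed within 1.5 times the reported one, 6 turned round and 7 counts moved further. Those that kept their direction could still move in size, as the ranges show. Without KO replicate 1 the mean log2 differences were 1.53 for peak number, 1.39 for covered length, 0.097 for median width and 0.67 for length in peaks of 5 kb or more, and without WT replicate 2 they were 0.46 for number and 0.11 for length. Leaving out each library in turn gave ranges of -3.12 to 1.53 for number, -4.17 to 1.39 for length, -0.56 to 0.097 for median width and -8.32 to 0.67 for length in wide peaks. Counts of regions ranged from 95 to 97 (KO-higher, replicate 1), 959 to 1264 (WT-higher, replicate 1), 3267 to 3269 (KO-higher, replicate 2) and 4812 to 4829 (WT-higher, replicate 2). Counts called in both replicates, 41 and 897, did not move when a library of the other genotype was left out. A call rests on a library's own difference list, which was not called anew. Leaving out another library changed only the limits of the merged regions, so the region counts had little room to move. These counts are among the 76 values and lend no support to the calls. With scores of at least 160 the calls fell to 15 KO-higher and 554 WT-higher regions in replicate 1, 1071 and 2952 in replicate 2, and 9 and 511 in both, since fewer peaks enter. Without chromosome 18, 23 KO-higher regions were called in both.

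The replicate numbers come from the titles, which do not say that a number marks a shared culture or day. With a replicate block the means are the same by construction, at -0.80, -1.39, -0.23 and -3.82, and the smallest p that pairing 2 numbers allows is 0.5. Matching peak numbers fixes the number of peaks, so that alternative gives no value for it. Depth is unknown, and a locus without a peak in KO replicate 1 may lie under its calling threshold.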

Other observations

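At the let-7 target windows the mark of transcribed gene bodies was also read. H3K36me3 at Igf2bp1 covered 17.2 kb in KO replicate 1, 23.6 kb in KO replicate 2, 4.83 kb in WT replicate 1 and 0 kb in WT replicate 2. At Igf2bp2, the third gene of the family, it covered 12.9 and 17.1 kb in KO replicates 1 and 2 and 0 kb in both WT libraries. Both KO libraries lay above both WT libraries at these loci. The Igf2bp2 window had no H3K27me3 peak in any library, whereas the Igf2bp1 window had H3K27me3 in all 4. The Igf2bp2 window also had no H3K4me3 peak, and whether it holds the promoter was not determined. Its lack of H3K27me3 is therefore not a statement about the promoter. At Hmga2 the H3K36me3 values were 9.20, 12.6, 14.9 and 2.90 kb in the order KO replicate 1, KO replicate 2, WT replicate 1 and WT replicate 2, so the genotypes overlapped.

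WT-higher H3K27me3 regions of both replicates were spread over every autosome, from 12 on chromosome 16 to 102 on chromosome 4. Those within 1 Mb of each other gathered into 414 clusters, and the largest, on chromosome 19 around Pax2 (chr19:41278904-47331560), held 31 of the 897 regions. Neither the counts per chromosome nor the clusters were set against all regions, so they do not show where calls were dense.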
